A study of Mus musculus with 139 samples.

Results

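Single-cell RNA sequencing was used to compare the receptor cells of the middle turn of the mouse cochlea at postnatal day 14 to 16. The comparison covers 57 of the 139 cells of the series: 23 cells labelled as outer hair cells (OHCs) of the middle turn and 34 labelled as inner hair cells (IHCs) of the middle turn. Both groups were chosen by the cell type and turn in their labels, and each cell is a sample of its own. The cells also fall into series by the number in their title, with 16 OHCs and 21 IHCs numbered up to 100 (the lower-numbered cells) and 7 OHCs and 13 IHCs numbered above 100 (the higher-numbered cells). The labels give cochlea as the tissue of every cell. The sources used here do not name a strain, genotype, sex, animal or way of collecting cells, so the number of animals behind each group is unknown.

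IHCs are the sensory cells that report sound to the brain. They release glutamate at ribbon synapses, where a presynaptic ribbon holds vesicles beside calcium channels, and otoferlin and the glutamate transporter VGLUT3 are needed for that release. OHCs amplify vibration: their lateral membrane is packed with the motor protein prestin, they contain large amounts of the calcium buffer oncomodulin, and they receive an inhibitory efferent nerve supply that acts through nicotinic receptors and calcium-activated potassium channels. The transcription factors TBX2 and IKZF2 (Helios) are known to maintain the inner and the outer fate.

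Because no label names an animal, the cells of a group were summed and each group counts as 1 sample, so the differences below carry no test and no p-value. Levels are given in CPM, the usual unit of counts scaled to library size, from the summed counts after TMM scaling (a correction for composition), and a difference is the log2 ratio of OHC to IHC levels with 1 CPM added to each. A positive value means a higher level in OHCs. A difference is called when it is at least 2-fold. Levels of a single cell are CPM of that cell's own total. Bracketed intervals are exact Poisson intervals at 95% and cover counting error only, not the spread between cells or animals.

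The depth of the cells differed with type and title number. The 23 OHCs held 94869815 counts in all, 71027 to 12100685 per cell, and the 34 IHCs held 199944360, 489277 to 13322238 per cell. The 7 higher-numbered OHCs supplied 73.8% of the OHC counts and the 13 higher-numbered IHCs 56.6% of the IHC counts. Genes detected per cell ran from 681 to 15134 in OHCs and from 1835 to 27575 in IHCs. The higher-numbered cells resembled each other more: the median Spearman correlation between pairs was 0.46 among these OHCs and 0.47 among these IHCs, against 0.19 and 0.26 among the lower-numbered OHCs and IHCs. Genes of the mitochondrial genome, or the transcript CT010467.1, took over 10% of the counts in 5 OHCs and in 0 IHCs.

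The labels were checked against the defining markers in every cell. The IHC pair Otof (otoferlin) and Slc17a8 (VGLUT3) summed to over 100 CPM in 32 of 34 IHCs and in 2 of 23 OHCs. The OHC pair Ocm (oncomodulin) and Slc26a5 (prestin) summed to over 100 CPM in 14 of 23 OHCs and in 4 of 34 IHCs. All 7 higher-numbered OHCs passed with the OHC pair, but only 7 of the 16 lower-numbered OHCs did, and 8 lower-numbered OHCs passed with neither pair. In 4 lower-numbered cells the pair of the other type was the higher: OHC 23 and OHC 28, whose totals of 71027 and 73282 counts are the lowest of the 57 cells, IHC 52, in which 27575 genes were detected, and IHC 53, which held both Otof and Ocm. The medians of the marker lists are given with and without these cells.

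**Figure D1:**
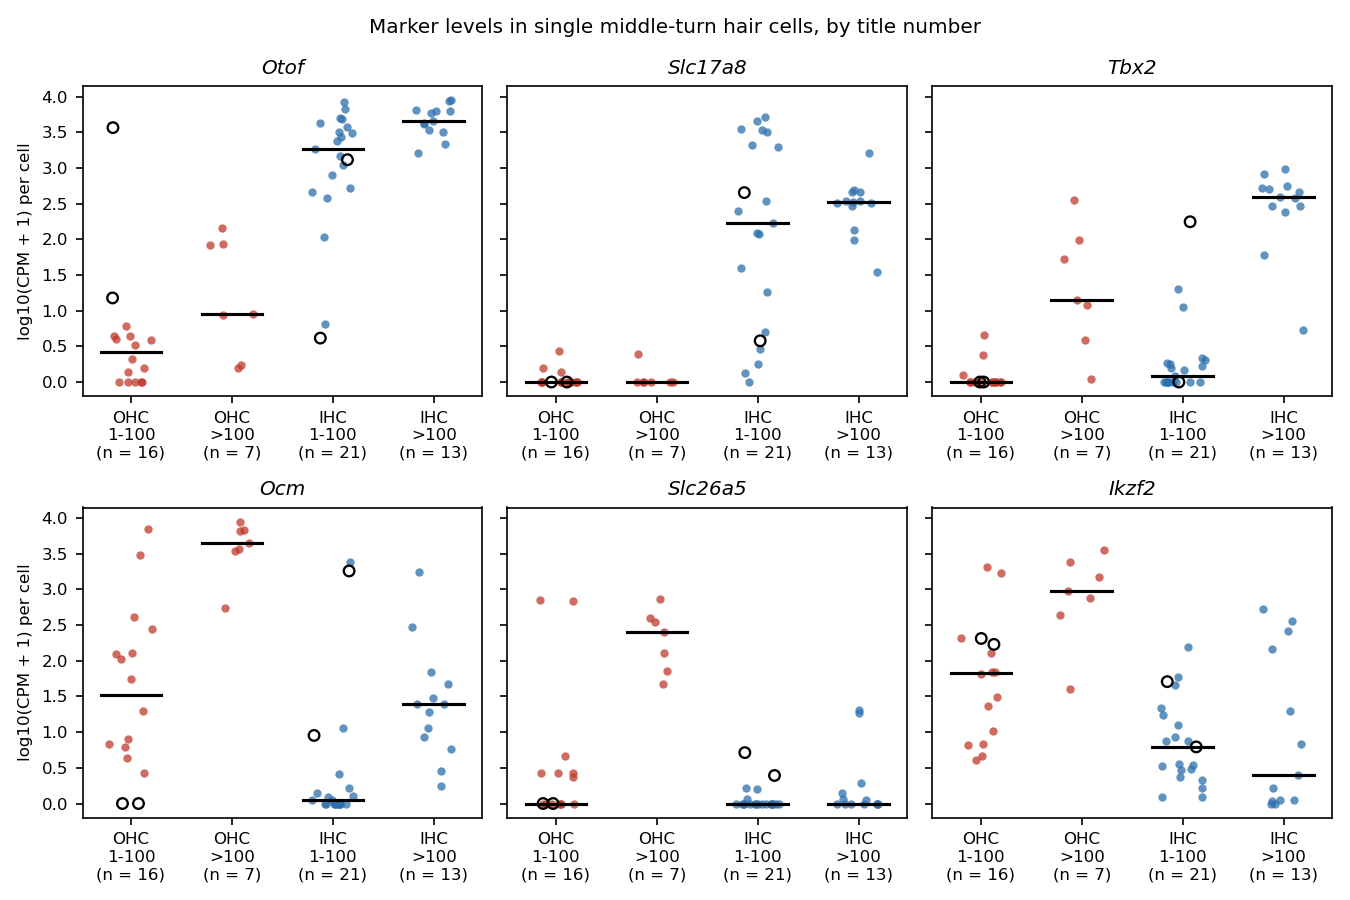
Level of 6 marker genes in each middle-turn cell, as log10 of CPM + 1, for OHCs (red) and IHCs (blue) by title number. Each point is a cell, bars are medians, and open black circles are the 4 cells in which the marker pair of the other type was the higher. Otof separates nearly all cells, while Slc26a5 is at or near 0 in most lower-numbered OHCs and at 46.8 CPM or more in the 7 higher-numbered ones.

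The promoters of Slc17a8 and Slc26a5 are shown because these genes had among the largest pooled differences of the markers, in opposite directions. The letters searched are those bound by the families of the fate factors TBX2 and IKZF2. Each promoter is the 250 bases before the start site, from RefSeq on GRCm38.p6, printed on the gene's strand from 5′ to 3′: chr10:89621250-89621499 (minus strand) for Slc17a8 and chr5:21865605-21865854 (minus strand) for Slc26a5. Capitals mark matches to the T-box site AGGTGTG or to TGGGAA, a core of Ikaros-type sites, on either strand (reverse complements CACACCT and TTCCCA).
Slc17a8: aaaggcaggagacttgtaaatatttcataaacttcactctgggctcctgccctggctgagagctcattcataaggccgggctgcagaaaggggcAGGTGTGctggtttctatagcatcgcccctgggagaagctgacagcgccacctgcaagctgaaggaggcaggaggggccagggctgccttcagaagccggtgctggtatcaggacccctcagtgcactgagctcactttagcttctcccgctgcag
Slc26a5: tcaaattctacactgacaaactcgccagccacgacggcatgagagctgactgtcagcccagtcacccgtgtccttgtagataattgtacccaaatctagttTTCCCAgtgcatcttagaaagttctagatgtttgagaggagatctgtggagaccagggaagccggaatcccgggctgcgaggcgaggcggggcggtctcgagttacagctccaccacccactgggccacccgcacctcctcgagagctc
The Slc17a8 window holds the T-box letters and the Slc26a5 window the Ikaros-type letters on the opposite strand. The T-box site occurs in 5.11% and the Ikaros-type core in 21.6% of all 32841 windows of this length. Among the 30 genes named below, 9 of the 15 higher in OHCs and 13 of the 15 higher in IHCs had an entry. The T-box letters stood in 1 of these 9 and 2 of these 13, and the Ikaros-type letters in 4 of 9 and 3 of 13. A gene was counted when any of its windows held the letters. The shares above are of single windows, so the counts of genes cannot be set against them. The 1 gene higher in OHCs with the T-box letters was Strc. The start site of its window lay 6228 bases from the start of the gene in GENCODE M21. The window of Slc7a14, higher in IHCs, held neither motif, and neither did that of Ryr1, higher in OHCs. A match describes the letters of a window and is not evidence of binding.

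Of 11015 genes with at least 5 CPM in 1 group or both, 2765 (25.1%) were called higher in OHCs and 3800 (34.5%) higher in IHCs. The median of all genes was -0.24, and scaling by library totals or by DESeq2 size factors moved it to 0.03. With library totals the calls numbered 3436 for OHCs and 3525 for IHCs, and with DESeq2 size factors 2935 and 3057. When every cell had equal weight, 19.5% were called for OHCs and 45% for IHCs. Within the lower-numbered cells 12.6% and 38.9% of these genes were called, and within the higher-numbered cells 26.2% and 29.1%. Demanding at least 2-fold in all 4 of these values (pooled, equal weight per cell, lower-numbered, higher-numbered) left 304 genes (2.76%) higher in OHCs and 1248 genes (11.3%) higher in IHCs. The share of calls is large under each rule, so the gene lists below are read beside it.

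The 9 genes listed as IHC markers were all at least 2-fold higher in IHCs when pooled, with a median difference of -4.47. Without Otof and Slc17a8, which with Ocm and Slc26a5 picked out the cells that went against their label, the median was -3.65 with all cells and -3.69 without those 4 cells. In 8 of the 9 the call held in all 4 values. The list median was -5.87 within the lower-numbered and -4.22 within the higher-numbered cells.

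Otof (chr5:30367062-30461932, minus strand), the otoferlin gene, was at 3445 CPM (3437 to 3453) in IHCs and 25.5 CPM (24.6 to 26.4) in OHCs. In single IHCs it ran from 3.13 through a median of 3204 to 8928 CPM, and in single OHCs from 0 through 2.90 to 3671 CPM. The highest OHC value is that of OHC 28, and the next highest OHC stood at 142 CPM. IHC 52 lay lowest among IHCs and 3 IHCs lay below 142 CPM, so the groups overlapped. The pooled difference was -7.02 and the difference of the cell means -4.54. Without OHC 28, left out after its value was seen, the mean of the OHCs went from 134 to 12.6 CPM and the difference of the cell means was -7.86.

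Slc17a8 (chr10:89574020-89621253, minus strand), the vesicular glutamate transporter, was at 777 CPM in IHCs and at 0.14 CPM in OHCs, where 17 reads in 4 of 23 cells were all that was counted. No OHC exceeded 1.72 CPM. Single IHCs ran from 0 through a median of 319 to 5099 CPM, and in the higher-numbered IHCs the lowest value was 33.7 CPM, above every OHC. After thinning each cell to 500000 counts, 84.8% of IHCs had at least 10 CPM and 0 of 19 OHCs did. If the cells were independent, 0 of 19 would allow a share of up to 15.8%. No label names an animal, so that limit covers the sampling of cells only, not the spread between animals. The pooled difference of -9.42 was -10.65 within the lower-numbered and -8.25 within the higher-numbered cells.

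Tbx2 (chr11:85832551-85841948, plus strand), the IHC fate factor, was at 214 CPM in IHCs and 34.4 CPM in OHCs, a difference of -2.61. The difference depended on the series. Higher-numbered IHCs ran from 4.31 through 387 to 969 CPM and higher-numbered OHCs from 0.09 through 13.1 to 356 CPM, so they overlapped. In the lower-numbered cells the median was 0.22 CPM in IHCs and 0 CPM in OHCs, although IHC 53 held 175 CPM.

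Of the other IHC markers, Atp2a3 (the SERCA3 calcium pump of the endoplasmic reticulum) was at 1416 against 63.02 CPM, and 93.9% of thinned IHCs against 36.8% of thinned OHCs held at least 10 CPM. Slc7a14, an amino acid transporter family member, was at 812 against 0.74 CPM. Calb2 (calretinin) was at 259 against 70.1 CPM, Shtn1 (shootin) at 79.8 against 10.2 CPM and Dnajc5b (a cysteine string protein) at 12.5 against 0.08 CPM. Fgf8, a growth factor made by IHCs, had no read in any OHC, and against the floor of 3 counts over the group its 44.997 CPM in IHCs were at least 1862-fold higher. Its reads came almost wholly from higher-numbered IHCs, in which it ran from 0.27 through 96.6 to 182 CPM, and no lower-numbered IHC exceeded 0.29 CPM. With Fgf8 at that floor the median of the list stays that of Atp2a3.

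Of the 13 genes listed as OHC markers, 12 passed the filter on low values (Chrna10 did not), 11 of these differed at least 2-fold toward OHCs and 0 toward IHCs. Their median difference was 2.79, and the call held in all 4 values for 8. Without Ocm and Slc26a5 the median was 2.29 with all cells and 2.59 without the 4 cells that went against their label. The 12 that passed had to reach 5 CPM in 1 group, which favours genes that differ.

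Ocm (chr5:144019804-144026670, minus strand), the calcium buffer, was at 3294 CPM (3284 to 3304) in OHCs and 140 CPM (138 to 141) in IHCs, a difference of 4.55. Higher-numbered OHCs ran from 541 through 4450 to 8930 CPM, and lower-numbered OHCs from 0 through 36.5 to 6962 CPM. Most IHCs lay near 0, with a median of 1.19 CPM, but IHC 54, IHC 53 and 1 higher-numbered IHC held 2421, 1815 and 1761 CPM. These 3 cells overlap with the OHCs, and 1 cell alone held 62.1% of the Ocm reads of all IHCs.

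Slc26a5 (chr5:21810655-21865604, minus strand), the motor protein, was at 207 CPM (204 to 209) in OHCs and 1.44 CPM (1.29 to 1.61) in IHCs, a difference of 6.41. The higher-numbered OHCs ran from 46.8 through 252 to 737 CPM, and no IHC exceeded 19.3 CPM, so these groups did not overlap. Among the 16 lower-numbered OHCs only OHC 35 and OHC 37 held it in quantity, at 704 and 680 CPM, and the median was 0 CPM. At equal depth 47.4% of OHCs and 6.06% of IHCs had at least 10 CPM.

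Ikzf2 (chr1:69531214-69687245, minus strand), the OHC fate factor, was at 879 CPM in OHCs and 50.5 CPM in IHCs, a difference of 4.10. Higher-numbered OHCs ran from 39.1 through 939 to 3610 CPM and higher-numbered IHCs from 0 through 1.54 to 523 CPM, so they overlapped. In the lower-numbered cells the read number barely followed depth: 14 of 16 OHCs had 8 to 69 reads although their totals ran from 71027 to 5480966, and 20 of 21 IHCs had 2 to 34 reads. The high CPM of some shallow OHCs rests on these few reads. Ikzf2 shares exonic sequence with the antisense gene Gm29114, and the sources used here do not state whether strand was used in counting.

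Of the other OHC markers, Bmp3 (a bone morphogenetic protein) was at 155 against 0.07 CPM, and 63.5% of its OHC reads came from 1 cell. Strip2 (a subunit of the striatin complex) was at 383 against 50.8 CPM, with 60.6% of the OHC reads in 1 cell, and its difference ran from 9.16 in lower-numbered to 1.48 in higher-numbered cells. Lbh, a transcriptional regulator, was at 229 against 34.8 CPM. Lmod3 (leiomodin) was at 46.6 against 11.8 CPM, Sri (sorcin) at 333 against 140 CPM and Insm1 (a zinc finger factor of OHC differentiation) at 5.04 against 0.72 CPM. Chrna9, a subunit of the efferent acetylcholine receptor, was at 136 CPM in OHCs and 90.4 CPM in IHCs, a difference of 0.58 that was -0.35 between the cell means.

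**Figure D2:**
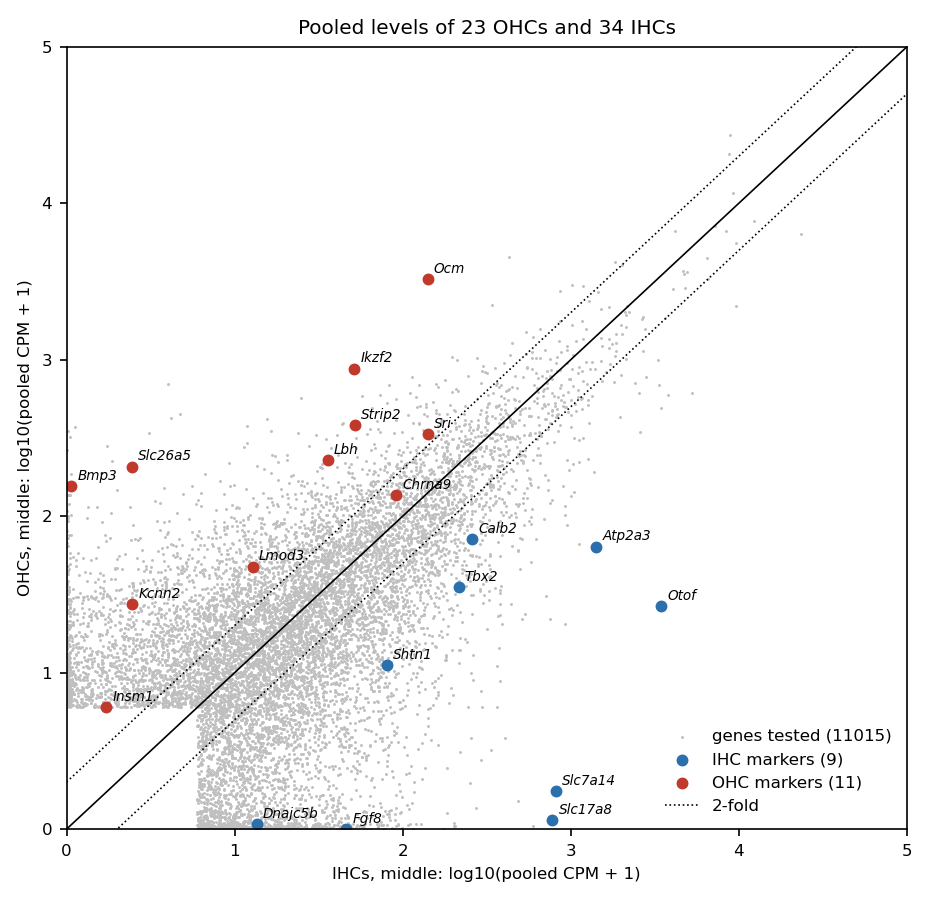
Pooled level of every tested gene in the 23 OHCs (y axis) against the 34 IHCs (x axis), both as log10 of CPM + 1, with IHC markers in blue and OHC markers in red. Dotted lines are 2-fold differences; all 9 IHC markers lie below the lower line and, of the 11 OHC markers drawn in red (1 of the 12 that passed is not marked), all but Chrna9 lie above the upper one.

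Genes past 2-fold in all 4 values (pooled, equal weight, lower-numbered, higher-numbered) were ranked by the size of their smallest value, largest first. The pooled and equal-weight values hold the cells of both series, so the 4 are not separate. A gene also needed at least 10 CPM and reads in at least 50% of the cells of the higher group. On the IHC side 588 genes met these terms, and the 15 that ranked first held 2 of the IHC markers, Slc17a8 and Slc7a14. Beside them stood synaptic and membrane proteins. Rims2, an active zone scaffold, was at 273 against 0.35 CPM. Unc80, a subunit of the sodium leak channel complex, was at 184 against 0.27 CPM. Ptprz1 (a receptor phosphatase) was at 363 against 5.003 CPM and Mpp7 (a membrane scaffold) at 295 against 5.003 CPM. Chrm3, the M3 muscarinic acetylcholine receptor, was at 92.8 against 0.08 CPM, with 66.8% of its IHC reads in 1 cell.

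Among the others of these 15, Bcl2, which blocks apoptosis, was at 334 against 2.22 CPM, and 54.5% of thinned IHCs against 10.5% of thinned OHCs held at least 10 CPM. Fos, an immediate early gene, was at 128 against 0.07 CPM, 9 reads in all OHCs. Fign (fidgetin, a microtubule-severing enzyme) was at 485 against 0.52 CPM and Zfp263 (a zinc finger protein) at 408 against 2.82 CPM. The nuclear receptor Nr6a1 was at 116.2 against 0.72 CPM and the elongation factor Ell2 at 75.1 against 0.21 CPM. The mitochondrial proteins Tomm5, of the import pore, and Slc25a30, a carrier, were at 108.5 against 0.35 CPM and 82.8 against 0.14 CPM. The median single IHC held 391 CPM of Slc7a14, 108.5 CPM of Ptprz1 and 90.1 CPM of Rims2, but under 1 CPM of Fign, Slc25a30, Fos, Chrm3, Tomm5, Nr6a1, Ell2 and Zfp263, which were carried by a part of the cells. For each of the 15, 1 cell held 13.3% to 66.8% of the IHC reads, among them 54.3% for Nr6a1, 46.2% for Slc25a30 and 45.8% for Unc80. Without that cell the differences ran from -4.93 for Chrm3 to -9.14 for Slc17a8, and Unc80 was at 103.99 and Nr6a1 at 53.9 CPM in IHCs.

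On the OHC side 126 genes met the terms, and the first of the 15 was Slc26a5. The stereocilin gene Strc, whose protein links the tallest stereocilia of OHCs to each other and to the tectorial membrane, was at 32.1 against 0.48 CPM. Atp8b1 (a phospholipid flippase) was at 26.8 against 0.23 CPM, Dpp6 (a potassium channel auxiliary subunit) at 14.9 against 0.08 CPM and Cachd1 (a calcium channel subunit-like protein) at 340 against 22.8 CPM. Hs3st3b1, a heparan sulfate sulfotransferase, was at 449 against 3.73 CPM, and Efcab2, an EF-hand protein, at 113.1 against 0.33 CPM, but 1 cell held 77.4% and 86.8% of these OHC reads.

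The rest were Arhgap44 (a RhoGAP, 571 against 23.9 CPM), Rassf3 (a Ras association protein, 415 against 14.7 CPM), Fam57b (a ceramide synthase-related protein, 185 against 5.63 CPM), Dixdc1 (a Wnt pathway protein, 103.3 against 3.55 CPM), Slc52a2 (a riboflavin transporter, 119.2 against 4.93 CPM), Tcirg1 (a proton pump subunit, 65.02 against 3.18 CPM), Xpc (a DNA damage sensor, 107.98 against 6.73 CPM) and Zfp644 (81.4 against 6.495 CPM). In all 15 the median single OHC held 6.01 CPM or less. Cachd1 was the most widespread, at or above 10 CPM in 57.9% of thinned OHCs and 30.3% of thinned IHCs. Each of the other 14 reached 10 CPM in 47.4% of thinned OHCs or fewer. Of the 30 genes named in both directions, 5 share exonic sequence with a gene on the opposite strand: Arhgap44 with Elac2, Fam57b with Aldoa, Strc with Ckmt1, and Bcl2 and Ell2 with non-coding genes. Their reads cannot be told apart from those of the partner unless strand was used in the counting. On the same strand 2 of the 30 share exonic sequence with another gene, Zfp644 with Gm28039 and Ell2 with Gm23127. Strand does not separate the reads of such shared stretches.

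For each of these OHC genes 1 cell held 26.5% to 86.8% of the OHC reads. It held 53.1% for Strc, 53.7% for Dpp6 and 54.99% for Rassf3. Without the cell that held most, the OHC levels of these 3 were 15.6, 7.89 and 190.3 CPM. The differences of the 15 then ran from 3.03 for Zfp644 to 6.06 for Slc26a5.

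The same genes were looked up in the pooled apical and basal cells, which are other cells of the same series. Of the 15 genes higher in IHCs, 13 were at least 2-fold higher in IHCs in the apex, 14 in the base and 12 in both. Of all 11015 genes, 32.6%, 54% and 19.4% were, and in the base the median of all genes was -1.34. Of the 15 higher in OHCs, 9 were at least 2-fold higher in OHCs in the apex, 5 in the base and 3 in both, namely Slc26a5, Hs3st3b1 and Cachd1, beside 24.9%, 15.9% and 4.01% of all genes. For 5 of these 15 the apex, and for 5 the base, showed at least 2-fold the other way. The regions were not compared by a test.

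**Figure D3:**
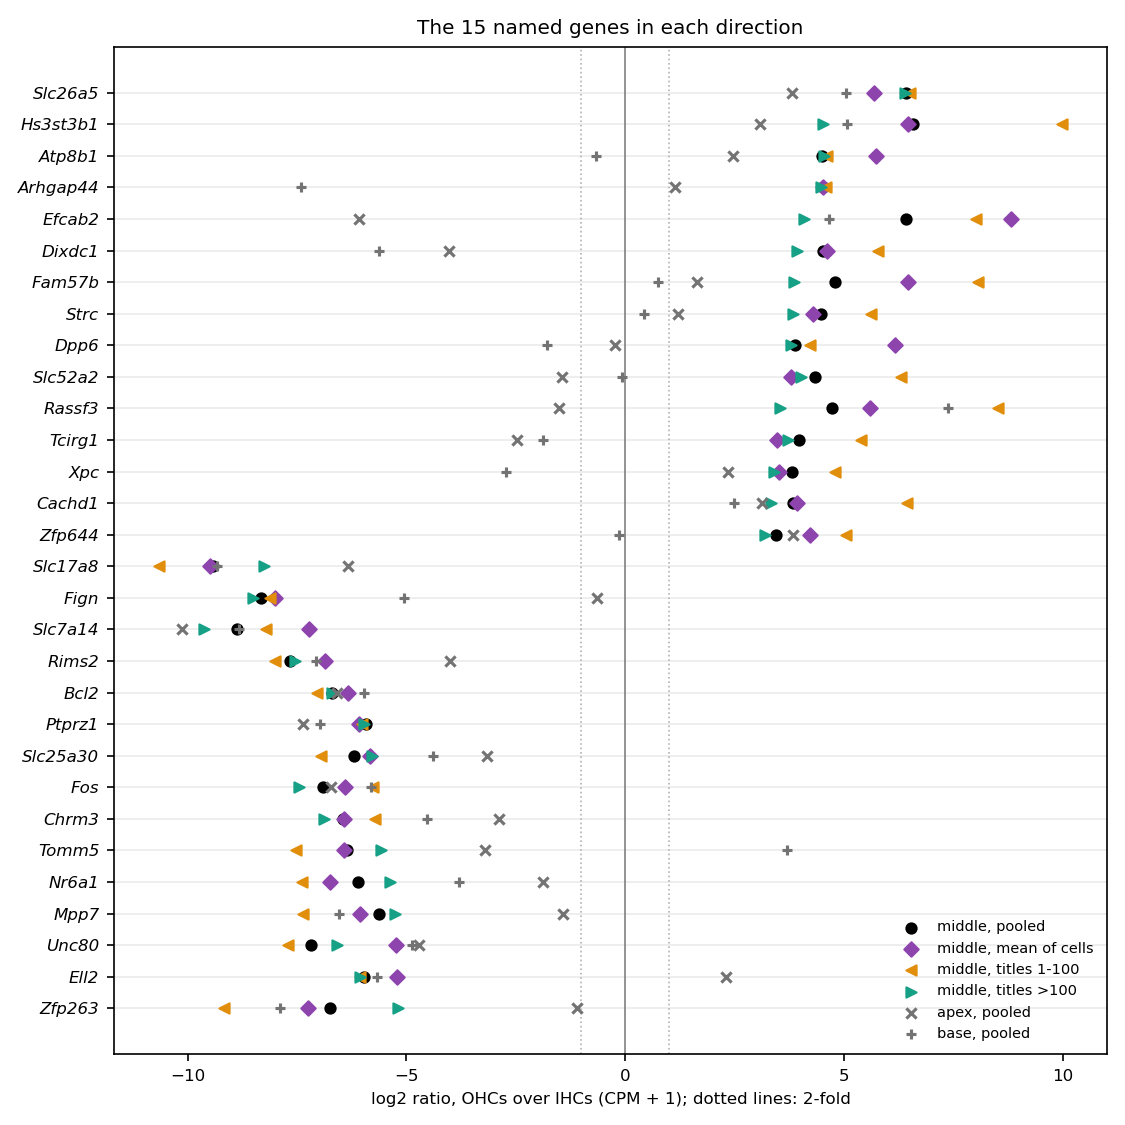
Log2 ratio of OHCs over IHCs for the 15 genes named in each direction: the 4 middle-turn values (coloured) and the pooled values of apex and base (grey). The 4 middle-turn values lie past the dotted 2-fold lines by construction; grey marks on the other side, as for Dixdc1 and Tcirg1, are turns in which the direction was opposite.

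Genes of the ribbon synapse and active zone were lower in OHCs as a group: 16 of 17 passed the filter, 10 were at least 2-fold lower and 2 at least 2-fold higher in OHCs, and the median was -1.87 beside -0.24 for all genes. Otof, Slc17a8 and Rims2 were the lowest. Rimbp2, which ties calcium channels to the scaffold, was at 6.02 against 51.5 CPM, and Cabp2, a calmodulin-like regulator of these channels, at 18.006 against 113.97 CPM. The channel pore Cacna1d was at 217 against 186 CPM and the ribbon protein gene Ctbp2 at 45.8 against 47.8 CPM, both within 2-fold. Counts are per gene, so transcripts of Ctbp2 were not told apart, and it shares exonic sequence with Fgfr2 on the same strand. Cacnb2, the channel's beta subunit, was higher in OHCs at 187 against 46.7 CPM, yet 99.8% of those OHC reads came from 1 cell and the higher-numbered cells gave -4.79. The list median was -3.65 in lower-numbered and -0.995 in higher-numbered cells.

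The SNARE and vesicle cycle genes lay near the median of all genes (0.08, 31 of 33 passed, 4 higher and 8 lower in OHCs). Snap25, a core SNARE, was at 958 against 955 CPM. The dynamins diverged: Dnm1 was at 6.83 CPM in OHCs against 89.8 CPM in IHCs, and Dnm3 at 2235 against 339 CPM. Dnm3 ran from 0 through a median of 1739 to 23249 CPM in single OHCs and was at or above 10 CPM in 84.2% of thinned OHCs and 54.5% of thinned IHCs.

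Calcium buffers and transporters (24 of 24 passed, 3 higher and 9 lower in OHCs, median -0.82) split by member. Ocm was the highest. Calb1 (calbindin) was at 60.1 against 483 CPM, and among higher-numbered cells it ran from 0.28 through 149 to 258 CPM in OHCs and from 43.5 through 842 to 1945 CPM in IHCs. Calm2, a calmodulin gene, was at 154 against 903 CPM, while Calm3 was at 51.1 against 43.3 CPM.

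The plasma membrane calcium pumps went in opposite directions. Atp2b2 (PMCA2, known from the OHC hair bundle) was at 1030 CPM in OHCs and 277 CPM in IHCs, a difference of 1.89 that was 1.76 in lower-numbered and 1.85 in higher-numbered cells. Atp2b1 (PMCA1) was at 617 against 2544 CPM, with -1.55 and -2.44 in the same series. Single higher-numbered OHCs ran from 115.9 through 1683 to 4590 CPM of Atp2b2 and IHCs from 142 through 321 to 1652 CPM, so the cells overlapped. Equal weight per cell gave 0.93 for Atp2b2, under 2-fold, and -2.002 for Atp2b1.

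Of the potassium channel list, 17 of 23 genes passed, 4 were higher and 8 lower in OHCs, and the median was -0.76. Kcnn2 (the SK2 channel) was among those higher in OHCs. Kcnma1, the BK channel of IHCs, was at 120 against 257 CPM, a difference of -1.09 that was -8.36 in lower-numbered and 0.09 in higher-numbered cells. Kcnmb2, a BK subunit, was lowest at 0.81 against 25.006 CPM, but 93.6% of its IHC reads came from 1 cell.

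The efferent synapse list had 5 of 7 genes past the filter, 3 higher and 1 lower in OHCs, and a median of 3.06. Kcnn2 was at 26.5 against 1.46 CPM. The calcium release channels Ryr1 and Ryr2 were at 150 against 2.81 CPM and 13.6 against 0.75 CPM. The pattern came from the higher-numbered cells, in which Ryr1 ran from 21.8 through 277 to 503 CPM in OHCs and from 0 through 0 to 50.7 CPM in IHCs. In the lower-numbered cells Ryr1 did not exceed 16.0 CPM in any OHC, and the list median was 0.21. Homer2, a scaffold, was at 123.3 against 268 CPM.

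Of the mechanotransduction complex, the channel pore gene Tmc1 was at 131 against 173 CPM, and the pooled levels of Lhfpl5, Cib2 and Ush1c also lay within 2-fold. Tmie, a channel subunit, was at 224 against 59.2 CPM, and Pcdh15, the tip-link protocadherin, at 2.07 against 14.3 CPM. In the list 12 of 14 passed, 2 were higher and 4 lower in OHCs, with a median of -0.40. Clrn1 (clarin), the lowest, was at 24.9 against 192 CPM.

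Of 29 stereocilia genes that passed out of 31, 4 were higher and 12 lower in OHCs, with a median of -0.53. Strc was the highest. Espnl (espin-like) was at 29.1 against 2.21 CPM and Triobp, of the rootlet, at 258 against 99.8 CPM. Xirp2, an actin repair protein, was the lowest at 8.94 against 254 CPM, and 57.6% of thinned IHCs against 5.26% of thinned OHCs held at least 10 CPM. Whrn (whirlin) was at 16.5 against 143 CPM. The actin bundler Pls1 was at 2019 against 2097 CPM and did not reach 2-fold in any of the 4 values.

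Beyond Slc26a5, the lateral wall and cortical cytoskeleton list (19 of 21 passed, 6 higher and 3 lower in OHCs, median -0.19) stayed near the median of all genes. Ank2, an ankyrin, was at 313 against 112.9 CPM, with 1.53 and 1.41 in lower-numbered and higher-numbered cells, and was at or above 10 CPM in 89.5% of thinned OHCs and 69.7% of thinned IHCs. The spectrin genes Sptan1 and Sptbn1 were at 116.1 against 92.9 CPM and 396 against 463 CPM. Tmod3, a tropomodulin, was at 85.05 against 16.7 CPM, with 83.5% of the OHC reads in 1 cell and -0.26 in higher-numbered cells.

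Among fate and hair cell transcription factors 20 of 22 passed, 6 were higher and 3 lower in OHCs, and the median was -0.31. Six2 was at 91.3 against 2.81 CPM. Higher-numbered OHCs ran from 23.9 through 154 to 345 CPM of Six2 and higher-numbered IHCs from 0 through 0.58 to 28.6 CPM, and in lower-numbered cells of both types no cell exceeded 2.52 CPM. Eya1, a phosphatase and coactivator, was at 348 against 15.5 CPM, but 94.1% of the OHC reads lay in 1 cell and the higher-numbered cells gave 0.35. Pou4f3, which hair cells need to survive, was at 220 against 418 CPM. Gfi1 and Barhl1 were at 21.99 against 28.9 CPM and 21.8 against 19.4 CPM.

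General hair cell genes mark both types. Of 15 listed, 14 passed, 1 was higher and 3 lower in OHCs, and the median was -0.43. Myo6, a minus-end myosin, was at 1140 against 2705 CPM. Myo7a was at 19.7 against 52.7 CPM. Within the lower-numbered cells 10 of the 14 were at least 2-fold lower in OHCs and within the higher-numbered cells 2, and the medians were -2.35 and -0.32. Of all 11015 genes 38.9% and 29.1% were lower in OHCs in these series, with medians of -0.22 and -0.026. With the filter applied to the lower-numbered cells, the list median was -3.24 beside -2.85 for all genes. The lower-numbered OHCs had a median total of 762541 counts against 10532500 in the higher-numbered OHCs; the part of depth in the lower values was not tested.

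Immediate early genes and genes of apoptosis were lower in OHCs as lists when pooled. For the immediate early list (17 of 20 passed) 10 were lower and 3 higher in OHCs, with a median of -1.93. Beside Fos, Egr1 was at 92.0 against 380 CPM, Jun at 31.5 against 179 CPM and Btg2 at 9.99 against 365 CPM. In OHCs Ier3 was the highest, at 14.5 against 2.27 CPM. These genes are switched on within minutes of many stimuli. In lower-numbered cells the list median was -0.51 and in higher-numbered cells -1.92. At least 2-fold lower in all 4 values were 6 of the 17, beside 11.3% of all genes.

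For apoptosis and p53 genes (15 of 20 passed) 9 were lower and 1 higher in OHCs, with a median of -2.24 that was -2.51 in lower-numbered and -0.73 in higher-numbered cells. It was -1.14 with library totals and -1.04 with no filter on low values. Only 2 of the 15 were at least 2-fold lower in all 4 values, beside 11.3% of all genes. The survival genes Bcl2 and Bcl2l1, the latter at 94.8 against 695 CPM, and Xiap, at 14.4 against 124 CPM, stood in this list beside the death genes Casp9, at 6.43 against 84.7 CPM, and Apaf1, at 0.73 against 16.6 CPM. Xiap, Casp9 and Apaf1 drew 80.7%, 74.2% and 85.4% of their IHC reads from 1 cell each.

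Energy and protein synthesis genes had pooled medians above that of all genes, and medians below 0 in the lower-numbered cells. Of 76 ribosomal protein genes that passed, 27 were higher and 5 lower in OHCs, with a median of 0.61 that was -1.04 in lower-numbered and 0.80 in higher-numbered cells. The nuclear respiratory chain list (71 passed, 12 higher, 8 lower) had medians of 0.33, -0.73 and 0.31 in the same order. Of 9 mitochondrially encoded genes that passed, 2 were higher and 1 lower in OHCs, with medians of 0.60, -1.19 and 0.72. With equal weight per cell the 3 medians were 0.06, -0.20 and -0.03, and without the cells over 10% mitochondrial or CT010467.1 they were 0.36, 0.0080 and 0.13. Of these 3 lists only the ribosomal one had a larger share called higher in OHCs than the 25.1% of all genes. The cytochrome oxidase gene mt-Co1 was at 20735 against 8732 CPM. Reads of ribosomal and mitochondrial genes are shared with near-identical copies in the genome, and the sources used here do not state how such reads were counted.

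When pooled, glycolysis (19 of 19 passed, 5 higher and 4 lower in OHCs, median -0.01), antioxidant defence (19 of 21, 7 and 4, 0.04) and chaperones (18 of 20, 2 and 6, -0.42) stayed close to the median of all genes, and tubulins (10 of 15, 2 and 0) had a median of 0.34. Within them Ldha (lactate dehydrogenase) was at 80.0 against 12.3 CPM and Gpx1 (a glutathione peroxidase) at 133 against 27.8 CPM, both higher in OHCs, though 74.1% of the Ldha reads lay in 1 OHC. Nfe2l2 (the antioxidant regulator NRF2) was at 1.97 against 104.8 CPM. The chaperone Hsp90aa1 was at 778 against 2815 CPM, a difference of -1.85 that was -0.47 in higher-numbered cells. The chaperone list median was -1.66 in lower-numbered and -0.14 in higher-numbered cells. In lower-numbered cells 11 of the 18 were at least 2-fold lower in OHCs, beside 38.9% of all genes and a median of -0.22.

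Markers of other cell types were read in both groups. Blood and immune genes (8 of 18 passed, 6 higher and 0 lower in OHCs, median 1.89) included Hba-a1, a haemoglobin, at 1282 against 447 CPM, whose reads may be shared with its near-identical copy Hba-a2. The list summed to 10.2 to 23245 CPM in single OHCs and 0 to 120044 CPM in single IHCs. Mesenchyme and bone genes (14 of 15, 8 and 0, 1.52) included Dcn (decorin) at 112.5 against 9.17 CPM and summed to 25.2 to 25226 CPM in OHCs and 9.24 to 24479 CPM in IHCs. Neuron and glia genes (15 of 17, 5 and 2, 0.79) included Mbp, of myelin, at 577 against 119.2 CPM, and summed to 493 to 18818 CPM and 2185 to 25132 CPM. Supporting cell genes (18 of 22, 3 and 10, -1.05) went the other way, with Tectb at 50.1 against 583 CPM and Gjb2 at 98.4 against 578 CPM, and summed to 31.2 to 10550 CPM and 0.98 to 13752 CPM. Their median was -0.067 with thinned cells, and that of neuron and glia genes 0.14 without the deepest cell of each group.

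Few strial, pericyte and endothelial genes passed the filter, 4 of 11 and 4 of 12, and their medians were 0.65 and -1.32. Members of the blood, mesenchyme, stria and pericyte lists with 0 reads over a whole group numbered 0 in OHCs and 0 in IHCs. Within the lower-numbered cells the blood list had a median of -0.22 and the mesenchyme list -0.19, against 2.57 and 1.68 within the higher-numbered cells. The neuron and glia list had -0.67 and 0.77, and the supporting cell list 0.14 and -1.24, in the same order. The higher-numbered OHCs, which carry the OHC differences in Ryr1 and Six2, also had higher medians of the blood and mesenchyme lists than the IHCs of the same series. The part of other cells' RNA in any of the differences was not tested.

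**Figure D4:**
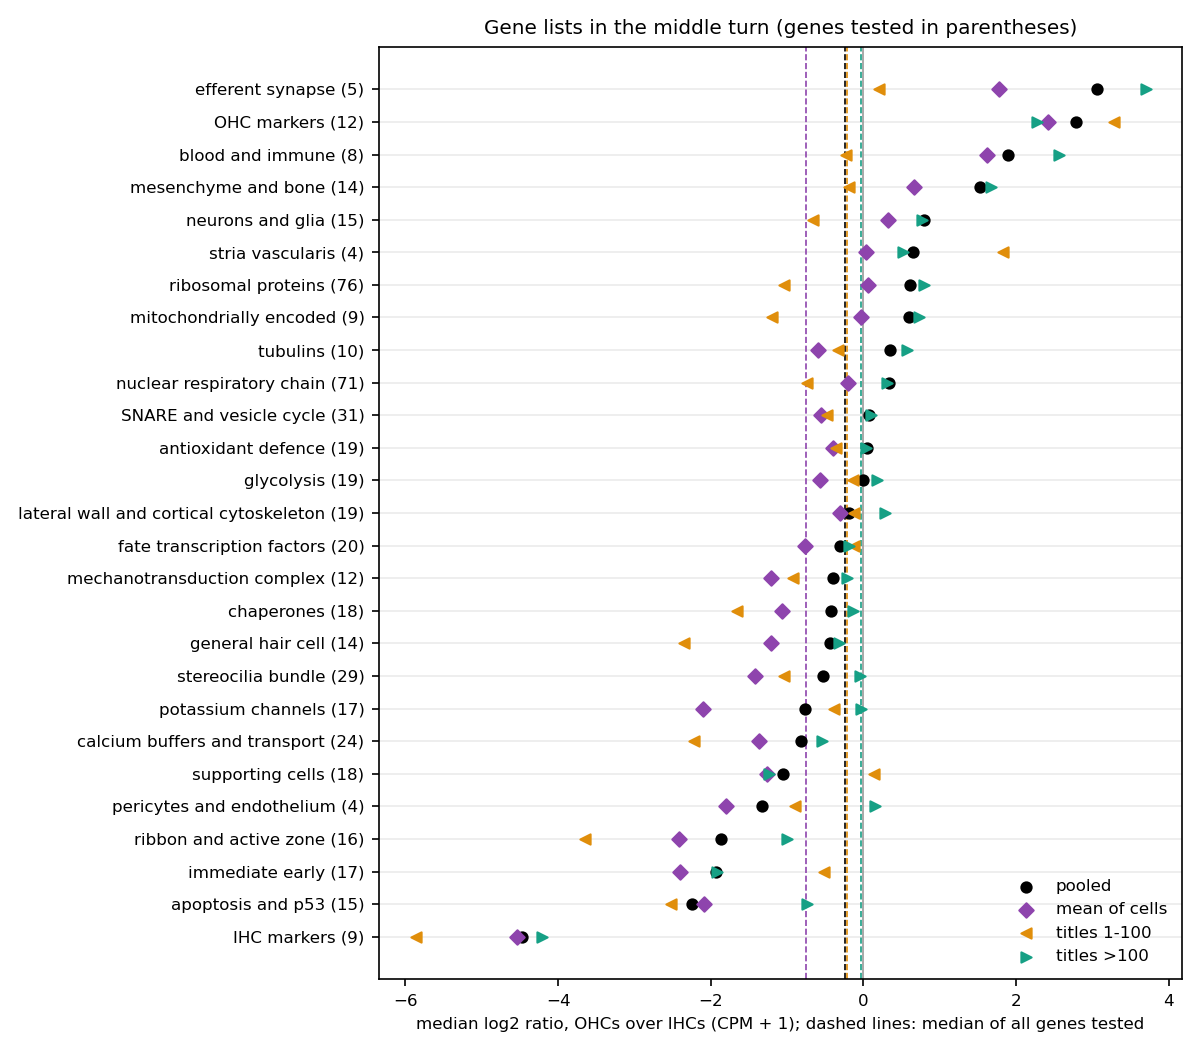
Median log2 ratio of OHCs over IHCs for each gene list, from pooled counts (circles), equal weight per cell (diamonds), lower-numbered cells (left triangles) and higher-numbered cells (right triangles); the number of genes tested is in parentheses. Dashed lines are the medians of all 11015 genes in the same colours; IHC markers lie lowest at -4.47 and the efferent synapse and OHC markers highest at 3.06 and 2.79 when pooled.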

How the data were processed

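Each library held the RNA of 1 cell and was read on an Illumina HiSeq 2500, per the labels. The authors deposited raw counts per gene for 139 cells. Trimmomatic, HISAT2 and featureCounts (Subread 1.4.6) are named with GRCm38 (mm10), per the submitters' processing notes; the sources used here do not state strandedness, the handling of multi-mapping reads or molecular identifiers.

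Columns were matched to cells by title. Gene symbols and positions came from GENCODE M21 (55154 of 55335 lines matched; the 181 without a symbol held 0.00668% of the counts). Counts were summed per group, scaled by TMM in edgeR 4.0.16 over the 6 groups of the series, and compared as log2 of (CPM + 1) for genes with at least 5 CPM in either middle group. No test was run, because no animal is labelled. Totals ran from 71027 to 13322238 counts per cell. For shares of cells, each cell was thinned to 500000 counts, leaving 19 OHCs and 33 IHCs. The log2 ratio and the rule of 4 values were also run on simulated counts scaled by library totals. That run left out TMM, thinning and the naming of genes, and its noise between cells was set, not taken from the data. It therefore does not show how the steps behave on these cells.

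The cells, the gene lists and the rules were chosen with earlier results of these data known. Genes were named by rank of their smallest difference among 4 values (15 per direction, predicted, ribosomal, mitochondrial and pseudogene symbols left out), and from the lists by role, with each list's highest or lowest member; values of some list members are not reported here. Promoters came from RefSeq. Alternatives covered cell weights, scaling (including DESeq2 1.42.0), pseudocount, filter, depth and left-out cells.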

Additional observations from a re-analysis of the deposited data

Results flagged for a closer look

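Among the 30 genes named for the middle turn, 10 differed at least 2-fold in the opposite direction in the apex or the base. The difference between turns was not tested, since each group is 1 sample. The apex held 55 cells of both types and the base 27, beside 57 in the middle turn. In the base the median of all genes was -1.34. Of the genes higher in middle OHCs, Arhgap44 had a log2 ratio of OHCs over IHCs of -7.41 in the base, Dpp6 of -1.78 in the base and Xpc of -2.73 in the base. Efcab2 was at -6.07, Slc52a2 at -1.44 and Rassf3 at -1.51 in the apex. Dixdc1 was at -4.03 in the apex and -5.63 in the base, and Tcirg1 at -2.48 in the apex and -1.87 in the base. Of the genes higher in middle IHCs, Tomm5 was at 3.70 in the base and Ell2 at 2.31 in the apex.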

How the results depend on the processing

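The named genes were chosen to be past 2-fold when pooled, with equal weight per cell and in each title-number series, so those settings and the mean of the 2 series say nothing of their stability, and a filter leaves their ratios as they were. Under the other scalings, pseudocounts and left-out or thinned cells the 30 stayed past 2-fold. Without cells against their label 28 were counted, since Slc17a8 and Slc26a5 picked those cells out. Selection nearly fixed this outcome: the lowest of the smallest values was 3.19, for Zfp644, and the same reads were used again. It does not measure how stable the genes are. Dpp6 did not pass the filter of 20 CPM. The mean of the 2 series was added after seeing the data, as was leaving out OHC 28 or the cell with most reads of a gene. Genes at least 2-fold higher in OHCs numbered 2765, against 1507 with a filter of 20 CPM and 1308 with title numbers up to 100 only. Genes at least 2-fold lower numbered 3800, against 2212 with a filter of 20 CPM.

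The median of all genes (-0.24), of the IHC markers (-4.47) and of the OHC markers (2.79) was, in this order, -0.90, -4.54 and 2.57 with equal weight per cell and its own filter, 0.034, -4.23 and 3.03 with library totals, and 0.025, -4.23 and 3.12 with DESeq2 size factors. A pseudocount of 0.1 gave -0.25, -6.13 and 2.81, and one of 5 gave -0.20, -3.32 and 2.42. No filter gave -0.0065 for all genes and 2.68 for OHC markers, and 20 CPM gave -0.28, -5.00 and 2.89. Without the deepest cell of each group they were -0.31, -4.94 and 3.06, and with cells of at least 500000 counts only, the marker medians were -4.45 and 2.80. Title numbers above 100 gave -0.054, -4.22 and 2.27, and title numbers up to 100 gave -2.85, -6.62 and 4.06. Without cells over 10% mitochondrial or CT010467.1 they were -0.40, -4.65 and 2.85, without cells against their label and, in the marker medians, the 4 genes that picked them out -0.33, -3.69 and 2.59, with thinned cells -0.26, -4.09 and 3.07, and as the mean of the 2 series -0.53, -4.23 and 3.55.

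With title numbers up to 100 and the filter applied to those cells, several list medians went from above to below 0. They were efferent synapse -2.30, blood and immune -0.43, mesenchyme and bone -0.049 and neurons and glia -1.26. The others were ribosomal proteins -1.94, nuclear respiratory chain -1.60, mitochondrially encoded -1.44, tubulins -0.27, SNARE and vesicle cycle -0.87 and antioxidant defence -2.06. With these cells and this filter the median of all genes was -2.85, below each of these list medians. In this setting 25 of 27 list medians moved by over 1.5 times, 23 of them downward. The median of the pericyte and endothelium list, 4 genes, changed sign with library totals (0.042), DESeq2 size factors (0.039), no filter (0.071) and title numbers above 100 (0.46). Equal weight per cell moved 13 of 27 list medians by over 1.5 times, all downward. The cause was not tested.

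No paired analysis was possible because no result comes from a test and the title numbers name single cells, not pairs. Low levels in the lower-numbered OHCs are not evidence that a gene is off, since 8 of these 16 cells held neither marker pair above 100 CPM. The totals of those 8 ran from 71027 counts in OHC 23 to 3819016 in OHC 24. The part of depth, cell quality or cell identity was not tested.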
